A study of Mus musculus with 35 samples.

Results

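The genes described here are 8 long noncoding RNAs of the E14.5 mouse brain, *Miat*, *Snhg11*, *Pantr1*, *Sox2ot*, *Rmst*, *Mir143hg*, *Neat1* and *Malat1*, among 53465 genes listed in the bulk RNA-seq. They were chosen by name, with their levels in these populations already known, so the level of each gene is given as a description without a p-value. Neural, mural, endothelial and microglial cells were sorted by FACS from dissociated E14.5 brain, and the study states that 3 wild-type brains gave the 12 bulk libraries. They are called brains 1, 2 and 3 here, in the order of their label numbers, and values per library follow this order. Single cells of 4 such gates were also placed into wells of 3 wild-type plates, numbered 1, 2 and 3. They came from 3 independent brains by the study's account, and which plate held which brain is not given. These plates were sequenced with mCEL-Seq2, a method that counts molecules by random identifiers. Neural cells were those negative for every antibody used, mural cells were PDGFRb high, endothelial cells carried PECAM1 and CD102, and microglia were sorted for CD11b and CD45 by the study's account, whereas the microglial wells are recorded as CD41 positive and CD45 medium. On 3 further plates, labelled Mof Knockout (MOF is a histone acetyltransferase), no gate is given for any well, and the labels give no strain and no driver of the knockout. RNA of the bulk neural cells was isolated with a Qiagen mini kit and prepared with Illumina TruSeq, whereas the other 3 populations were isolated with miRNeasy Micro and prepared with SMART-Seq v4 and Nextera XT. In the bulk RNA-seq, the neural population and its kits therefore cannot be told apart.

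Long noncoding RNAs are transcribed and often spliced like messenger RNAs but are not known for a protein product, and many stay in the nucleus. *Malat1* is an abundant RNA of nuclear speckles, bodies that store splicing factors, and *Neat1* is the scaffold on which paraspeckles form. *Miat*, also called Gomafu, is a nuclear RNA of neurons with clustered copies of a sequence that binds splicing factors. *Sox2ot* is transcribed across the gene of the progenitor factor SOX2, *Pantr1* starts beside the gene of the neural POU factor POU3F3, *Rmst* is an RNA of neural progenitors reported to bind SOX2, *Snhg11* hosts small nucleolar RNAs, and *Mir143hg* (also *Carmn*) is the host transcript of the smooth-muscle microRNAs miR-143 and miR-145.

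The sequence for which *Miat* is known was looked for in the longest annotated transcript of each gene. *Miat* held 11 copies of ACTAAC, the core of the splicing branch point, on its sense strand in 9163 bases, or 1.20 per kb. *Neat1* held 4 copies in 20771 bases, *Pantr1* and *Snhg11* held 1 copy each, and *Malat1*, *Sox2ot*, *Rmst* and *Mir143hg* held 0. Over 10155 annotated long noncoding RNA genes the mean was 0.136 copies per kb, and 3 of 139 transcripts of at least 5000 bases, *Miat* among them, held as many copies as *Miat*. The copies of *Miat* were clustered, and both stretches of 150 bases below hold 4 of them, shown in capitals. The stretches were placed to hold the most copies. Of 91085 fixed, adjoining windows of the same length over all long noncoding RNAs, 1.94% held a copy, a share that is not comparable with the placed stretches. The first stretch spans bases 4932 to 5081 of the transcript, at chr5:112217310-112217459 on the minus strand of GRCm38, and the second spans bases 5502 to 5651, at chr5:112216740-112216889 on the same strand.
Miat first stretch: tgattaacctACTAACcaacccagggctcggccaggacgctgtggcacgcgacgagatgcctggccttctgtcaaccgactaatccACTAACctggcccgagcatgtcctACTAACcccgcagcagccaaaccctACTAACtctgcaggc
Miat second stretch: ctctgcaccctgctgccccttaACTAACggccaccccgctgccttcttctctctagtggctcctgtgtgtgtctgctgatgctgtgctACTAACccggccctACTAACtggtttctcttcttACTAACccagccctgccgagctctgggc

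*Sox2ot* and *Rmst* are also host transcripts of microRNAs, which are shown because reads of a host say nothing by themselves of the mature products. RefSeq (GRCm38.p6) places the mature sequence of miR-1897-3p in an exon of *Sox2ot*, at chr3:34638511-34638532 on the plus strand. Both arms of miR-135a-2 and of miR-1251 lie in introns of *Rmst* on the minus strand, at chr10:92072141-92072163 and chr10:92072104-92072124 for the former and at chr10:92137190-92137210 and chr10:92137152-92137172 for the latter. Capitals mark the seed, bases 2 to 8, and no seed is shared among the 5 sequences.
mmu-miR-1897-3p: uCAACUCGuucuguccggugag
mmu-miR-135a-5p: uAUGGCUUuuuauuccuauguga
mmu-miR-135a-2-3p: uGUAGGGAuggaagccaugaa
mmu-miR-1251-5p: aCUCUAGCugccaaaggcgcu
mmu-miR-1251-3p: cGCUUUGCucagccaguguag

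Promoter sequences, from 250 bases before to 50 after the start of the gene in RefSeq GRCm38.p6, were found for 3 of the 8 genes, and they are shown because they belong to the bulk gene with the highest neural level of the 8, to the one abundant in every population, and, of the neural RNAs, to the one found in the fewest neural cells. The *Miat* promoter lies at chr5:112228899-112229198 on the minus strand, that of *Malat1* at chr19:5802623-5802922 on the minus strand and that of *Snhg11* at chr2:158375463-158375762 on the plus strand. Their GC content was 64.3%, 47.0% and 60.0%, and they held 25, 10 and 21 CpG dinucleotides respectively, against medians of 52.7% and 7 over 32851 promoters. Capitals mark matches, on either strand, to 6 motifs. The E-box CANNTG was found 0 times for *Miat*, once for *Malat1* and at 2 places for *Snhg11*, and 72.3% of all promoters hold it. The GC box GGGCGG was found for *Miat* alone (35.7% of all promoters). CCAAT (37.4%), TATAAA (13.6%), the POU octamer ATGCAAAT (1.74%) and the SOX core AACAAT (10.7%) were not found in these 3 windows.
Miat promoter: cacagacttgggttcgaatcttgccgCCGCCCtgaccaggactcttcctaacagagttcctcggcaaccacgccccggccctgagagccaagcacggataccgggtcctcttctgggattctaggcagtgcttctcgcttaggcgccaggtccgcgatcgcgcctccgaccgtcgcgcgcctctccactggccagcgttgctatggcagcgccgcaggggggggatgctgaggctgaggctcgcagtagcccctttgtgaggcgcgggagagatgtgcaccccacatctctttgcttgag
Malat1 promoter: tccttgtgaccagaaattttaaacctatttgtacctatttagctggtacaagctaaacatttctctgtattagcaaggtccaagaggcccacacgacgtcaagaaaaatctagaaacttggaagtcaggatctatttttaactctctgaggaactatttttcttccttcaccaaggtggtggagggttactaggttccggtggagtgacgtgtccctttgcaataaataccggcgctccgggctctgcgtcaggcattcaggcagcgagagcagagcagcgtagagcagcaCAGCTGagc
Snhg11 promoter: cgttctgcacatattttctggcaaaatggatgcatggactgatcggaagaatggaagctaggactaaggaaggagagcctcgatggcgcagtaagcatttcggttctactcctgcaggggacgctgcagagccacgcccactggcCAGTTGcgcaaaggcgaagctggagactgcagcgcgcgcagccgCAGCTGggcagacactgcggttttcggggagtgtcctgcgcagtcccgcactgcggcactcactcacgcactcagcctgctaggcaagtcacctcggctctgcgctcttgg

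The bulk libraries held 17638358 to 98414914 reads on genes, and 1 read was worth 0.264 to 1.77 normalized counts. Of the single cells, 686 of 994 wells with one of the 4 gates passed the threshold of more than 1500 transcripts (123 neural, 210 mural, 225 endothelial and 128 microglial), with median depths of 7717, 6885, 6408 and 10761 transcripts. Plate 3 gave only 14, 10, 13 and 6 of these cells, so that 1 transcript there was worth 10.9 to 19.7 CPM (transcripts of the summed wells, scaled to a common total), against 1.04 to 2.37 CPM on plates 1 and 2. In bulk the 7 listed markers of each population had their highest sum in its own libraries. Neural markers summed to 137680 to 147062 normalized counts there and 6436 to 61383 elsewhere. Mural ones summed to 739189 to 789995 against at most 6965. Endothelial ones summed to 172693 to 190069 against at most 2358, and microglial ones to 247933 to 260586 against at most 176. The 7 neural markers were above 0 in every library, so presence alone does not tell the populations apart. In wells the markers of a gate summed to 2581 to 13472 CPM in that gate. Not every well matched its gate. Its own marker list gave the most transcripts in 122 of 123 neural, 195 of 210 mural, 208 of 225 endothelial and 127 of 128 microglial wells, and the remaining 15 mural wells were led by neural markers. On plate 3 the endothelial wells held 3081 CPM of mural markers, more than the 2581 CPM of their own, against 521 and 124 CPM on the other plates. In bulk, erythroid genes summed to 9572 to 25018 normalized counts in endothelial, 6385 to 8870 in neural and at most 1620 in the remaining libraries. Every well barcode recurs in more than 1 of the 11 wild-type libraries by plate design, so wells were told apart by library and barcode together.

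In the bulk RNA-seq, 5 of the 8 genes were highest in neural cells, *Mir143hg* in mural cells and *Neat1* in microglia, and for these 7 genes every library of the leading population lay above every library of the others. *Malat1* was lowest in neural cells and differed less among the other 3 populations. Since 4 populations with 3 libraries each were compared for genes picked by their pattern, this count follows from the choice of genes. How many of all bulk genes separate in this way was not counted. Calls of a higher level (limma, adjusted p under 0.05) covered 32.9% of 19765 genes for the neural, 19.3% for the mural and 23.4% for the microglial population. The plot of normalized counts by library shows the 8 patterns on one scale.

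**Figure D1:**
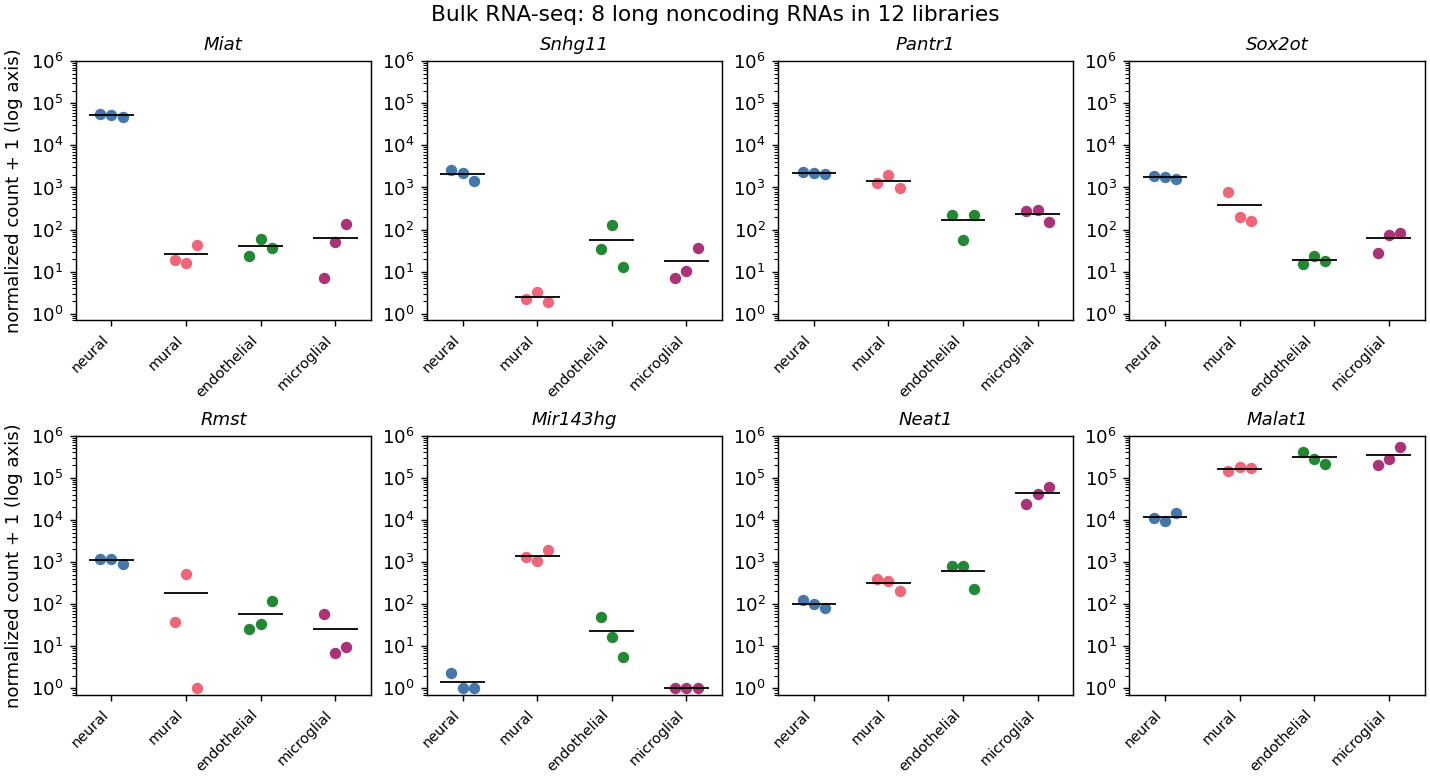
Normalized count + 1 on a log axis in the 12 bulk libraries, for each gene and population (points, brains 1, 2 and 3 from left to right; line, mean of 3). *Miat* was near 52267 normalized counts in neural cells and at most 136 in every other library, *Neat1* was at 24168 or more in microglia and at most 820 elsewhere, and *Malat1* was near 11729 in neural cells and at 141902 or more in the other 9 libraries.

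*Miat* (ENSMUSG00000097767, chr5:112213228-112229395, minus strand, 9293 exon bases) was the most abundant of the neural RNAs. Its normalized counts in neural cells were 56522, 52490 and 47790 (52267 ± 4370, SD, n = 3). Mural cells held 17.9, 14.8 and 42.3, endothelial cells 23.0, 59.6 and 36.2, and microglia 5.94, 48.6 and 136. Neural cells thus stood 823-fold above microglia, the next population, 1319-fold above endothelial cells and 2090-fold above mural cells, whereas the other 3 populations overlapped. On the log2(normalized count + 1) scale the difference of neural cells from the mean of the other 3 populations was 10.68 ± 1.15 (SD over 3 brains). In 3 neural libraries *Miat* took 0.184% to 0.224% of all reads on genes.

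*Snhg11* (ENSMUSG00000044349, chr2:158375638-158386145, plus strand) showed a similar profile at a lower level. GENCODE vM21, the annotation used here, lists it as protein coding, whereas RefSeq lists a long noncoding RNA. Neural cells held 2568, 2188 and 1424 normalized counts (2060 ± 583), and endothelial cells 33.7, 125 and 12.1. Microglia held 5.94, 9.49 and 35.3, overlapping with endothelial cells. The mural libraries held 3, 2 and 1 reads (1.31, 2.28 and 0.939 normalized counts), the lowest level of the 4 populations. The neural difference was 7.52 ± 0.67 on the log2 scale, and neural cells stood 36.2-fold above endothelial cells.

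*Pantr1* (ENSMUSG00000060424, chr1:42590782-42694842, minus strand) was shared between neural and mural cells in bulk. Neural cells held 2322, 2233 and 2095 normalized counts (2217 ± 114) and mural cells 1306, 1946 and 957 (1403 ± 502), a ratio of 1.58 without overlap. Endothelial cells held 225, 55.4 and 217, and microglia 277, 291 and 147, which overlapped. The difference from the mean of the other 3 populations was 2.66 ± 0.21 for neural cells and 1.70 ± 0.74 for mural cells on the log2 scale. The 7 neural markers summed to 34002 to 61383 normalized counts in the mural libraries, against 137680 to 147062 in the neural ones. The list was split, however. In the limma fits described below, 2 of the 7 were called higher and 4 lower in mural cells, with a median difference of -1.34. *Fabp7* was among the higher ones, whereas *Dcx* averaged 489 normalized counts in mural and 34247 in neural cells. The sum therefore does not stand for all 7 genes alike. *Miat* was at 25.0 in the same mural libraries, and the part of neural markers in the mural level of *Pantr1* was not tested.

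*Sox2ot* (ENSMUSG00000105265, chr3:34104270-34682619, plus strand) held 1916, 1734 and 1620 normalized counts in neural cells (1757 ± 149). In mural cells it held 780, 202 and 160, in microglia 26.2, 74.7 and 83.1, and in endothelial cells 14.2, 22.7 and 16.6. None of the neighboring populations in this order overlapped. The mural library of brain 1 stood apart from the other two, so the 4.62-fold ratio of neural to mural cells carries a mural SD of 347 on a mean of 381. The neural difference was 4.71 ± 0.10 on the log2 scale.

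*Rmst* (ENSMUSG00000112117, chr10:92071037-92165170, minus strand) held 1211, 1211 and 897 normalized counts in neural cells (1106 ± 181). The mural libraries were uneven, with 37.1, 518 and 0 normalized counts. Endothelial cells held 24.8, 32.6 and 119, and microglia 58.2, 5.93 and 8.81. Only the neural libraries stood clear of the rest, with a difference of 5.33 ± 0.95 on the log2 scale, and the ratio to mural cells (5.98-fold) rested on the library of brain 2.

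*Mir143hg* (ENSMUSG00000097324, chr18:61649625-61665537, minus strand) was the RNA of mural cells. The mural libraries held 1293, 1041 and 1946 normalized counts (1427 ± 467) and the endothelial libraries 47.8, 15.6 and 4.52. Neural cells held 1.34, 0 and 0, a total of 1 read, and microglia held 0 in all 3 libraries. Mural cells stood 63.0-fold above endothelial cells, and the mural difference was 8.95 ± 1.05 on the log2 scale.

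*Neat1* (ENSMUSG00000092274, chr19:5824708-5845478, minus strand) was the RNA of microglia. Its normalized counts there were 24168, 42185 and 61186 (42513 ± 18512). Endothelial cells held 820, 809 and 232, mural cells 405, 345.8 and 201, and neural cells 124, 101.3 and 80.3. Microglia stood 68.5-fold above endothelial cells and 417-fold above neural cells, with a difference of 7.28 ± 1.25 on the log2 scale. The microglial libraries also held the border macrophage markers, summed over 3 genes, at 8295 to 10911 normalized counts, against 13.6 to 994 in mural and endothelial cells and under 2 in neural cells, and their part in the level of *Neat1* was not tested.

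*Malat1* (ENSMUSG00000092341, chr19:5795690-5802672, minus strand) was the most abundant of the 8 genes and had the same bulk order of populations as *Neat1*, lowest in neural cells. Neural cells held 11296, 9576 and 14315 normalized counts (11729 ± 2399), mural cells 141902, 182870 and 172146 (165639 ± 21245), endothelial cells 415531, 284948 and 214523 (305001 ± 101994) and microglia 204010, 278286 and 541745 (341347 ± 177479). Microglia and endothelial cells overlapped, with a ratio of 1.12, whereas both lay above mural cells and all 3 lay above neural cells. Microglia stood 29.1-fold above neural cells. *Malat1* took 0.0383% to 0.0551% of the reads on genes in neural libraries and 0.515% to 1.76% in the other 9. The share of mitochondrial reads moved with the same split, at 1.41% to 1.51% in neural libraries and 7.93% to 22.3% in the others. The neural libraries were prepared with their own kits, so this difference and the kits cannot be told apart.

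Per kilobase of exon, which allows genes of unequal length to be compared, the level in the leading population was 48883 normalized counts for *Malat1*, 5624 for *Miat* and 2047 for *Neat1*. *Mir143hg* reached 619, *Pantr1* 497, *Snhg11* 242, *Sox2ot* 152 and *Rmst* 149 normalized counts per kilobase. Some reads cannot be given to a single gene, since exons overlap and the use of strand in counting is not stated. The antisense gene *Gm26953* shares 2260 exon bases with *Miat* and held 46.7, 27.1 and 21.9 normalized counts in neural cells. *Gm27544*, which shares 50 exon bases with *Rmst*, held 195, 191 and 106 in neural cells, and 0 to 26.3 in the other libraries.

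In the single cells the same RNAs were counted at far lower depth. Of the 8 genes, 7 kept the leading population of the bulk data, and *Malat1* did not. A low-count filter on the summed wells kept 7 of the 8 genes (*Snhg11* did not pass), whereas all 8 passed the minimum in bulk. The levels are given as CPM of the transcripts summed per plate, and shares of cells with exact (Clopper-Pearson) 95% intervals, which, like the limits given for a share of 0 (3 divided by the number of cells), cover counting error only. Such a limit concerns cells with a transcript, not cells that express the gene.

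**Figure D2:**
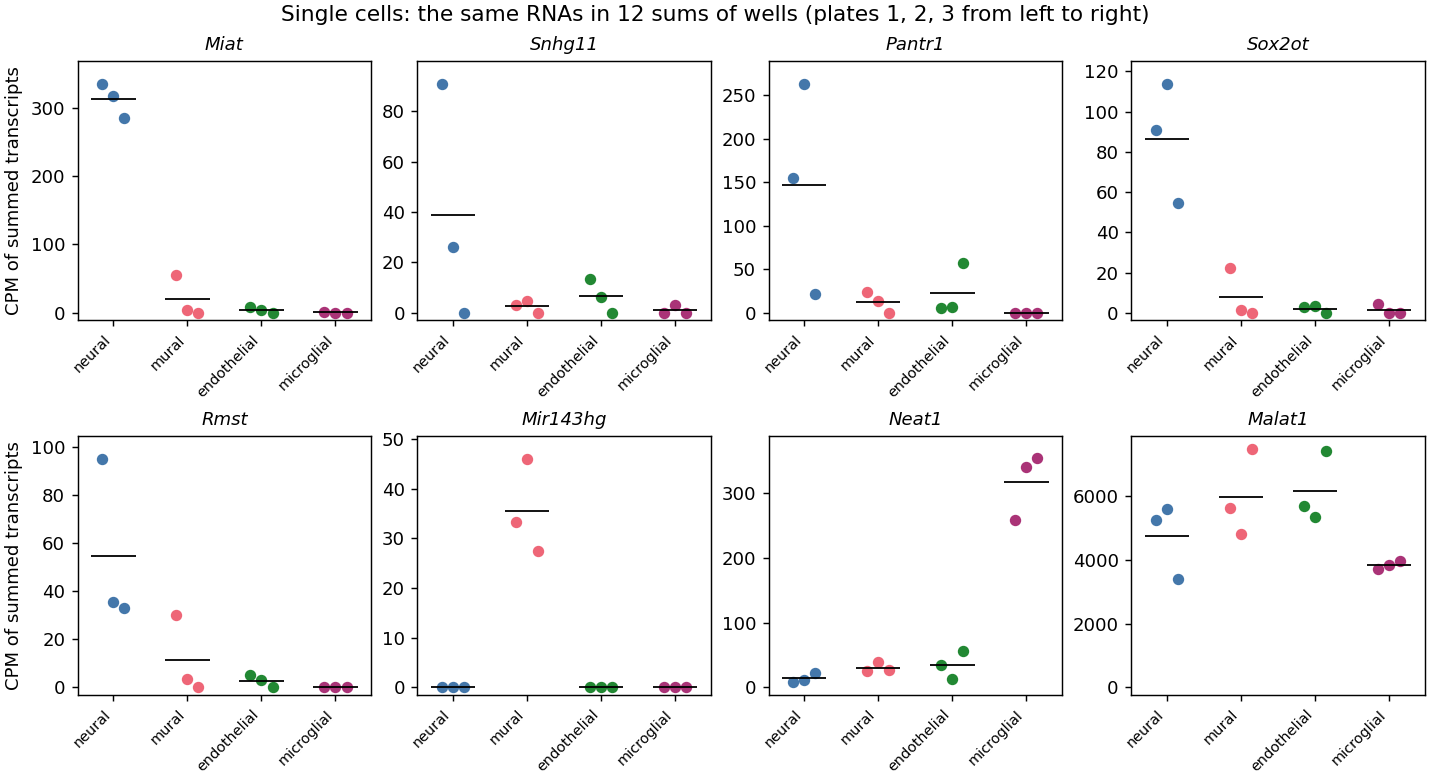
CPM of the summed transcripts for each gene, gate and wild-type plate (points, plates 1, 2 and 3 from left to right; line, mean of 3), each panel on its own linear axis. *Miat* lay at 285 to 335 CPM in neural wells, *Neat1* at 259 to 355 CPM in microglial wells, and *Malat1* at 3378 to 7471 CPM with overlap of most gates.

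*Miat* reached 335, 317 and 285 CPM in neural wells on plates 1, 2 and 3 (312 ± 25.2). At least 1 transcript was found in 76 of 123 neural cells, or 61.8% (52.6% to 70.4%), and in 30.9% after every cell had been thinned to 1500 transcripts. In endothelial wells it was found in 8 of 225 cells (3.56%) and in microglial wells in 1 of 128 (0.781%). Mural wells held 55.5, 3.54 and 0 CPM, so that mural cells ranked second here and last in bulk. In the 9 mural wells of plate 1 with *Miat*, neural markers summed to 7511 CPM, against 849 CPM in the 86 wells without it, and 6 of the 9 were led by neural markers. Restricted to wells led by mural markers, *Miat* in the mural gate was 5.44, 1.22 and 0 CPM. The neural difference on the log2(CPM + 10) scale was 4.48 ± 0.55 (SD over 3 plates), a scale on which low levels are compressed, compared with 10.68 on the bulk scale.

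Of 123 neural cells, 57 held *Pantr1* (46.3%, 37.3% to 55.6%), as did 16 of 210 mural cells (7.62%, 4.42% to 12.1%). Its level in neural wells was uneven, with 155, 263 and 21.9 CPM, whereas mural wells held 23.7, 12.995 and 0 CPM. The neural to mural ratio was 11.97 in single cells and 1.58 in bulk. The mural difference from the mean of the other populations was negative in single cells (-0.63 ± 0.84) and positive in bulk (1.70 ± 0.74). The SD in single cells exceeded the difference, so the sign there does not stand clear of the spread. In wells led by mural markers the level was 9.07, 6.08 and 0 CPM, and *Pantr1* was found in 0 of 128 microglial cells, a count that a share of up to 2.34% could give. The endothelial value of plate 3 (57.0 CPM) came from 2 wells, both led by neural markers, against 5.21 and 6.29 CPM on plates 1 and 2.

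*Sox2ot* gave the same kind of disagreement at a lower level. Neural wells held 90.8, 114 and 54.7 CPM, with a transcript in 36 of 123 cells (29.3%, 21.4% to 38.1%). Mural wells held 22.2, 1.18 and 0 CPM and 9 of 210 positive cells (4.29%). The neural to mural ratio was 11.1 here and 4.62 in bulk, and the mural difference was -0.60 ± 0.77 here and 1.27 ± 1.57 in bulk. Of the 9 positive mural wells, 6 were led by neural markers. In both assays the SD of the mural difference exceeded its size. In bulk the difference was positive in all 3 brains but uneven in size, and in single cells its sign does not stand clear of the spread.

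*Rmst* held 95.2, 35.5 and 32.8 CPM in neural wells and was found in 31 of 123 cells (25.2%, 17.8% to 33.8%). It was found in 12 of 210 mural cells (5.71%), and 11 of these 12 wells were led by neural markers. Their neural markers summed to 5771 CPM, against 658 CPM in mural wells without *Rmst*, and their mural markers to 1248 against 13558 CPM. Mural wells held 30.1, 3.54 and 0 CPM on plates 1, 2 and 3, and those led by mural markers held 1.81, 0 and 0 CPM. Microglial wells gave 0 of 128 cells, with the same upper limit of 2.34%. The neural to mural ratio of 4.86 in single cells, beside 5.98 in bulk, thus rested on mural wells led by neural markers.

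*Snhg11* was the neural RNA least clearly seen in single cells. Neural wells held 90.9, 26.0 and 0 CPM, with transcripts in 11 of 123 cells (8.94%, 4.55% to 15.4%), and a single cell held 36.6% of them. Endothelial wells held 13.5, 6.28 and 0 CPM, with 13 of 225 positive cells (5.78%, 3.11% to 9.68%), an interval that overlaps with the neural one. Neural markers were alike in endothelial wells with and without *Snhg11* (641 and 629 CPM), and wells led by endothelial markers still held 12.7, 6.47 and 0 CPM. The neural difference was 1.36 ± 1.396 on the log2(CPM + 10) scale, within its spread over plates, compared with 7.52 ± 0.67 in bulk. Without plate 1 it was 0.65, and without plate 3 it was 2.04.

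*Mir143hg* was found in the mural gate alone, in 47 of 210 cells (22.4%, 16.9% to 28.6%) and in 7.62% after thinning. Mural wells held 33.2, 46.1 and 27.5 CPM (35.6 ± 9.53). In neural, endothelial and microglial wells it was found in 0 of 123, 0 of 225 and 0 of 128 cells, counts that shares of up to 2.44%, 1.33% and 2.34% could give. The endothelial reads of the bulk libraries, at 22.7 ± 22.5 normalized counts, thus had no counterpart that this depth could show.

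*Neat1* held 259, 341 and 355 CPM in microglial wells (318 ± 51.7) and was found in 99 of 128 cells (77.3%, 69.1% to 84.3%), or 30.5% after thinning. Mural wells held 25.3, 39.0 and 27.5 CPM, endothelial wells 34.4, 12.6 and 57.0 CPM, and neural wells 8.86, 11.8 and 21.9 CPM. The endothelial gate overlapped with both others, whereas every mural plate lay above every neural one. On plate 3, however, the mural and neural values (27.5 and 21.9 CPM) were 2 transcripts each. The ratio of microglial to endothelial cells was 9.18 in single cells and 68.5 in bulk. Border macrophage markers in the microglial wells came to 160, 109 and 0 CPM, and plate 3 holds only 6 microglial cells. Their part in the level of *Neat1* was not tested here either.

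*Malat1* was found in 97.1% to 99.2% of the cells of every gate. Neural wells held 5226, 5570 and 3378 CPM (4725 ± 1179), mural wells 5616, 4811 and 7471 CPM (5966 ± 1364), endothelial wells 5686, 5348 and 7385 CPM (6140 ± 1092) and microglial wells 3721, 3830 and 3958 CPM (3836 ± 119). Microglia were thus lowest by mean in single cells and highest in bulk. Neural cells overlapped with each of the other gates, and their difference from the mean of the others was -0.16 ± 0.59 on the log2 scale, compared with -4.42 ± 0.22 in bulk. For microglia the difference was -0.51 ± 0.06 in single cells and 1.93 ± 0.77 in bulk, and the ratio of microglia to neural cells was 0.812 and 29.1 respectively. In wells led by their own markers the microglial level was 3726, 3830 and 3958 CPM, close to that of all wells.

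**Figure D3:**
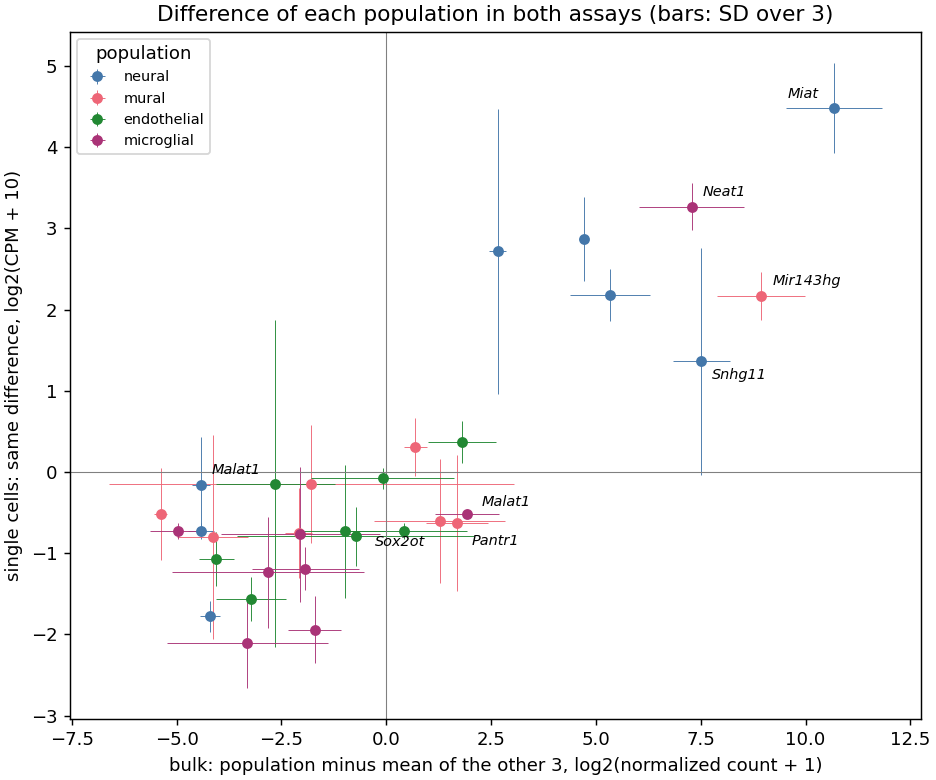
Difference of each population from the mean of the other 3 in bulk (horizontal axis, log2(normalized count + 1)) and in single cells (vertical axis, log2(CPM + 10)) for the 8 genes, with bars for the SD over 3 brains or plates. The leading populations of 7 genes lie at the upper right, and the points of opposite sign include *Malat1* in microglia and *Pantr1* and *Sox2ot* in mural cells.

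Of the 32 pairs of gene and population, 4 had opposite signs in the assays: *Malat1* in microglia, *Pantr1* and *Sox2ot* in mural cells and *Mir143hg* in endothelial cells, where the bulk difference was 0.43 ± 1.49 and the single cells held no transcript. For *Pantr1* and *Sox2ot* the single-cell difference (-0.63 ± 0.84 and -0.60 ± 0.77) was within its spread over plates. Only for *Malat1* in microglia did the difference exceed its SD in both assays without a count of 0. The scales and pseudocounts differ between the assays, so signs and orders were compared and the sizes are given side by side only. A lower level in a sorted population can come from fewer cells that hold the RNA or from less RNA per cell, which the bulk libraries cannot tell apart.

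To describe the neural RNAs within the neural gate, the 123 wells were split by whether 11 progenitor genes or 9 young-neuron genes gave more of their transcripts, with 36 wells in the former range and 87 in the latter, and 10 wells near the line (a share of 0.4 to 0.6). The progenitor range includes 1 well with no transcript of either list. The median depths were 7715 and 7717 transcripts. The split is a range of a score and not a cell type, and its progenitor genes include *Pou3f3* and *Sox2*, the neighbors of *Pantr1* and *Sox2ot*, so it is not independent of these loci. *Malat1* was higher in the neuron range on all 3 plates, with 3367, 4796 and 1222 CPM in the progenitor range and 6132, 5826 and 3849 CPM in the neuron range. *Snhg11* was found in 10 of 87 wells of the neuron range and 1 of 36 of the progenitor range. *Pantr1* was higher in the progenitor range on plates 1 and 2 (216 and 515 against 125 and 179 CPM), and plate 3, with 3 progenitor wells, gave 0 against 26.7 CPM. *Sox2ot* followed the same order on plates 1 and 2, with 108 and 219 against 82.4 and 78.8 CPM. *Miat* had no common order, at 257, 392 and 183 CPM in the progenitor range and 373, 293 and 307 CPM in the neuron range, and *Rmst* had none either (54.0, 38.1 and 0 against 115, 34.6 and 40.0 CPM). These values are a description and were not tested.

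**Figure D4:**
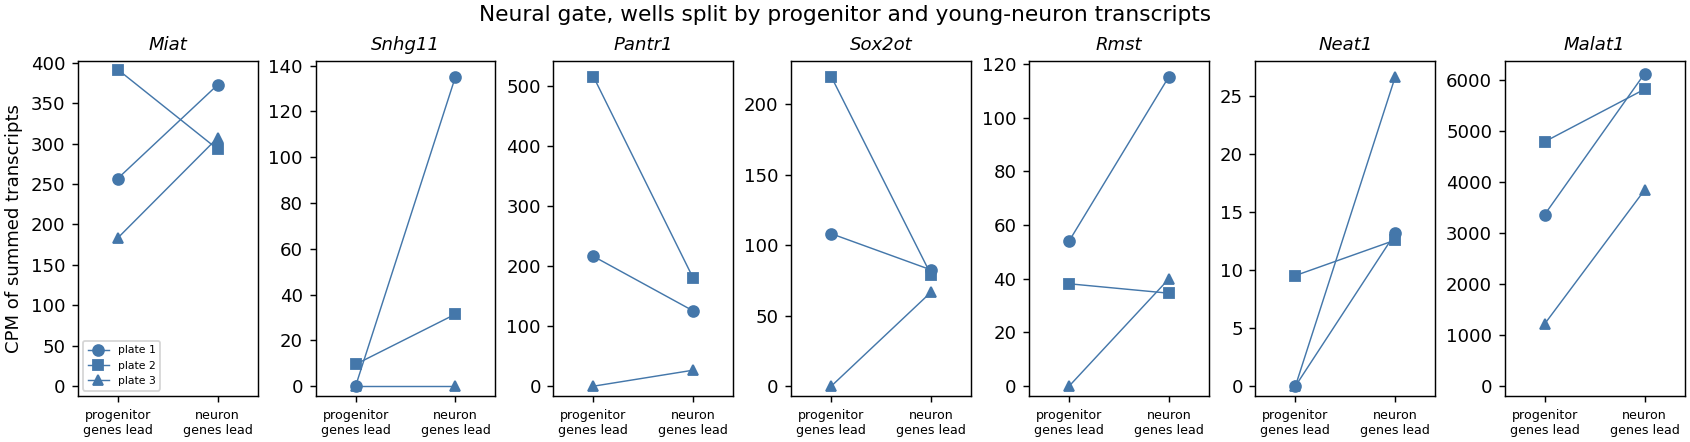
CPM of summed transcripts in neural wells of the progenitor range and of the neuron range (points, 1 plate each; lines join the 2 values of a plate), for the 7 genes found in the neural gate. *Malat1* lies higher in the neuron range on all 3 plates, *Pantr1* and *Sox2ot* lie higher in the progenitor range on plates 1 and 2 and not on plate 3, and *Miat* has no common order.

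The 3 plates labelled Mof Knockout, of 337, 195 and 350 kept cells, have no gates, and each was dominated by other markers. They are therefore given per plate beside those markers, with no comparison by genotype. Plate 4 held 10388 CPM of mural markers and 21.5 CPM of *Mir143hg*. Plate 5 held 2601 CPM of microglial markers and 113 CPM of *Neat1*, against 18.3 and 22.4 CPM of *Neat1* on plates 4 and 6. Plate 6 held 4707 CPM of endothelial markers, 22.4 CPM of *Neat1* and 2.93 CPM of *Mir143hg*. Neural markers were present on each, at 2010, 3268 and 1423 CPM, and *Miat* was at 50.1, 133 and 55.1 CPM. *Sox2ot* (51.9, 46.2 and 10.7 CPM) and *Rmst* (42.7, 19.6 and 10.2 CPM) were instead highest on plate 4. *Malat1* was at 3337, 2474 and 6587 CPM, lowest on plate 5, whose neural sum exceeded its microglial one.

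The other long noncoding RNAs of these populations were described with a fixed list of 56 genes that holds none of the 8. The list was chosen with earlier results of these data known and includes RNAs of neural loci. Its excess of neural calls over all genes is therefore not independent of that choice. In bulk, 49 were tested by limma across all genes, with a Benjamini-Hochberg adjusted p under 0.05 as the threshold. In neural cells 25 of 49 rose and 8 fell relative to the mean of the other populations, against 32.9% and 31.2% of all 19765 genes, with a list median of 1.35 on the log2 scale (0.09 over all genes). *Mir124a-1hg*, the host of a neuronal microRNA (9.19, SE 0.95, adjusted p = 1.0e-05), and *Sox1ot* (8.70, adjusted p = 0.00015) rose most, and *Rpph1*, the RNA of RNase P (-5.83), and *Kcnq1ot1*, an imprinted antisense RNA (-5.28), fell most. Among all 1969 tested genes of noncoding biotypes, 391 were called higher and 662 lower in neural cells, so the excess of higher calls in the list does not extend to that class. In mural cells 10 rose and 9 fell (19.3% and 22.7% of all genes), led by the imprinted RNAs *Mirg* (6.34) and *Airn* (6.06). In endothelial cells 9 rose and 15 fell (19.7% and 22.4%), with *Airn* (4.76) and *Fendrr*, an RNA of vascular and mesenchymal development (4.19), in front. In microglia 7 rose and 17 fell (23.4% and 22.3%), with *Lncpint* (7.02) and *Pvt1* (3.39) highest and *Airn* (-7.55) and *Rian* (-7.12) lowest.

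In the single-cell sums 23 genes of the list passed the filter and were tested with edgeR. In the neural gate 14 rose and 2 fell, against 22.5% and 17.3% of all 9281 genes, led by *Dlx6os1*, a forebrain interneuron RNA (6.34, adjusted p = 1.7e-12), and *Mir124a-1hg* (6.12), whereas *Mir22hg* (-2.34) and the imprinted RNA *H19* (-2.25) fell. The higher count was 4 without plate 1, 4 without plate 2 and 9 by DESeq2. In the mural gate 4 rose, with *Meg3* (3.73) and *Mirg* (3.61) in front, and 0 fell by edgeR (13.5% and 8.3%), where 3 were lower at an unadjusted p under 0.05, 0 by DESeq2 and 2 with the plate as a replicate block. In the endothelial gate 3 rose and 3 fell (16.4% and 6.96%), with *H19* (1.81) and *Firre* (1.35) up and *Mir124-2hg* (-3.15) and *Rian* (-1.73) down. In the microglial gate *Mir22hg* rose (2.46) and 11 fell (22.2% and 21.2%), among them *Meg3* (-5.02) and *Mir124a-1hg* (-4.61). Without plate 1 or without plate 2, 0 genes of the list rose there and only 3 fell. Of the 23 genes, 14 were called higher in neural cells by each assay, and 11 by both. Of all 8839 genes tested in both assays, 18.6% were called higher in neural cells by both, and 2.03% were called in opposite directions there. Of the 23 this was 1 gene, *Mir99ahg*, which was singled out after its values were seen. It fell in bulk neural cells (-2.62, adjusted p = 2.8e-05 by limma) and rose in neural wells (1.61, adjusted p = 2.4e-08 by edgeR), and in microglia it rose in bulk (1.20) and fell in wells (-0.98). *Kcnq1ot1* resembled *Malat1* in bulk, with means of 182 normalized counts in neural, 4813 in mural, 5215 in endothelial cells and 17143 in microglia, and its neural difference of 0.52 in single cells did not pass the test (adjusted p = 0.13).

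The proteins that share bodies or sequences with these RNAs were described in the population with the highest bulk mean of the RNA. For *Malat1* this is microglia, which overlapped with endothelial cells in bulk and were lowest in wells. Of 13 genes for paraspeckle proteins, the partners of *Neat1*, 1 rose and 6 fell in bulk microglia (23.4% and 22.3% of all genes). *Ewsr1* rose by 0.46 and *Nudt21* (-1.41, adjusted p = 3.8e-05) and *Hnrnph3* (-1.29) fell most by limma. In microglial wells 0 rose by edgeR (0 at an unadjusted p under 0.05, 0 by DESeq2 and 1 with the plate as a block) and 3 fell, with *Hnrnph3* at -1.43 and *Dazap1* at -0.83 (22.2% and 21.2% of all genes). Without plate 1 only 1 fell, and without plate 2 it was 0. The microglial median was -0.34 in bulk and -0.11 in wells, against -0.02 and -0.03 over all genes. Of 12 genes for speckle proteins, 5 rose and 2 fell in bulk microglia (23.4% and 22.3%), with *Son* (1.12) and *Srrm1* (0.72) up and *Srsf1* (-0.67) and *Ddx39b* (-0.28) down. The higher count was 2 or 3 when any brain was left out and 2 after quantile normalization. With the brain as a block 1 was lower, and without brain 1 or without brain 3 it was 0. In wells 0 were called in either direction by edgeR, by DESeq2 or at an unadjusted p under 0.05, and 2 were higher with the plate as a block.

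Of 3 splicing factors known to bind the repeats of *Miat*, *Celf3* rose in neural cells in both assays (6.69 in bulk, adjusted p = 5.9e-08 by limma, and 5.11 in wells by edgeR). *Qki* fell in both (-1.17 and -1.10), although both calls in wells were lost without plate 2, and *Sf1* rose in bulk (2.11), with a difference of 0.28 in wells (adjusted p = 0.38). The shares over all genes in neural cells were 32.9% higher and 31.2% lower in bulk and 22.5% and 17.3% in wells. Of 11 genes of the smooth-muscle program linked to miR-143 and miR-145, *Acta2*, smooth-muscle actin (6.63), and *Myocd*, its activator (6.25), rose in bulk mural cells, and *Mrtfa* (-2.92) and *Srf* (-2.45) fell, beside 19.3% and 22.7% of all genes. Their median was 0.52 (-0.10 over all genes). In mural wells 5 of these genes were tested and 0 were called by edgeR or DESeq2, beside 13.5% and 8.3% of all genes (1 was higher at an unadjusted p under 0.05, and 1 with the plate as a block).

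Progenitor and young-neuron genes were largely higher in the neural population in both assays, which follows from their choice as genes of neural cells. Some of them, such as *Sox2*, *Fabp7*, *Tubb3* and *Dcx*, are also among the neural markers. Of 11 progenitor genes, 10 rose and 1 fell in bulk neural cells (32.9% and 31.2% of all genes), with *Sox1* (7.71) and *Sox3* (7.04) highest and *Hes1* (-2.04) lower, and in wells 9 rose and 2 fell (22.5% and 17.3%), with *Pou3f3* (6.02) and *Sox1* (5.43) highest and *Hes1* (-2.01) and *Nes* (-0.76) lower. All 9 young-neuron genes rose in both assays, among them *Nsg2* (6.25 in bulk and 6.74 in wells), *Dcx* (5.94 in bulk) and *Tubb3* (6.47 in wells). In bulk mural cells 4 of the 11 progenitor genes rose and 1 fell (19.3% and 22.7%), with *Fabp7* (3.504, adjusted p = 2.2e-05 by limma) and *Hes1* (2.501) highest and *Nes* lower (-0.80). *Sox9* and *Sox1* (adjusted p = 0.046) were the other higher calls, and the remaining 6, among them *Sox2* and *Pou3f3*, were not called. *Hes1* was at 8494 normalized counts in mural and 797 in neural cells. The *Fabp7* difference was 1.13 in neural cells, below its mural one, and *Fabp7* is itself among the neural markers. For *Sox9* and *Sox1* the neural difference was the larger (1.79 and 7.71, against 1.17 and 1.65 in mural cells). The part in these calls of the neural markers that the mural libraries carry, given beside *Pantr1*, was not tested.

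The protein-coding genes next to the 8 RNAs were tested in the same fits. *Pou3f3*, 926 bases from *Pantr1*, was at 13620 ± 363 normalized counts in neural cells (6.30 above the mean of the others, adjusted p = 2.6e-07) and at 364 ± 96.7 in mural cells, where its difference was -0.70 (adjusted p = 0.18 by limma). In bulk *Pantr1* and *Pou3f3* thus stood at different relative levels in mural cells, with a neural to mural ratio of 1.58 for the RNA. In wells both were low in the mural gate. *Pou3f3* was at 309 CPM in neural and 15.3 CPM in mural wells, and *Pantr1* at 147 and 12.2 CPM. The mural difference of *Pou3f3* in wells was 0.80 (adjusted p = 0.36 by edgeR). *Sox2*, inside *Sox2ot*, was at 4440 ± 164 in neural cells (5.53, adjusted p = 7.0e-05) and at 286 in mural cells, and in wells its difference was 4.95 in neural and 1.68 in mural cells (adjusted p = 0.012 by edgeR). The mural wells held 146, 14.2 and 0 CPM of *Sox2* on plates 1, 2 and 3, beside 1441, 638 and 343.3 CPM of the neural markers, and the part of these in the call was not tested. *Cryba4*, a crystallin gene 17098 bases from *Miat*, had the opposite population, with 4877 normalized counts in microglia (11.84, adjusted p = 1.4e-07) and a mean of 2.62 or less elsewhere. *Frmd8*, 4224 bases from *Neat1*, fell in neural cells in both assays (-1.25 by limma and -2.66 by edgeR) and rose in mural wells (1.68). Beside *Snhg11*, *Ralgapb* rose in bulk neural cells (2.41, adjusted p = 2.0e-05) and its difference in wells was 0.75 (adjusted p = 0.066), and *Lbp* rose in bulk endothelial cells (4.45). Beside *Mir143hg*, *Csnk1a1* rose in bulk mural cells by 0.23 (adjusted p = 0.039) and *Il17b* was at or near 0. The nearest coding genes of *Rmst* lie far away. *Tmpo*, 889722 bases before it, rose in bulk neural cells (1.45), and its difference in wells was 0.32 (adjusted p = 0.33). *Nedd1*, 519576 bases after it, fell in bulk neural cells (-1.01), and its difference in wells was -0.69 (adjusted p = 0.25). *Dnajc19*, before *Sox2ot*, fell in bulk neural cells (-1.93), with a difference of 0.37 in wells (adjusted p = 0.39). The bulk neural difference of *Atp11b* after it was 0.27 (adjusted p = 0.35), whereas in wells it fell in neural cells (-1.43, adjusted p = 0.010 by edgeR) and rose in microglia (1.35). *Gm26897* and *Tmem182* were below the minimum level.

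Genes with the most similar profile were sought among 19764 others by Pearson's r over the 12 bulk libraries, which share 4 populations and 2 library methods, and the same r is given over the 12 single-cell sums. For *Miat* they were the pseudogene *Gm6206* (0.99) and *Mmp24* (0.99). For *Neat1* they were *Acer3* (0.99 in bulk and 0.91 in wells), *Sirt7* (0.98 and 0.42) and the lysosomal protease gene *Ctsb* (0.98 and 0.93). For *Mir143hg* they were *Spry1* (0.98 and 0.75), *Laptm4a* (0.98 and 0.86) and *Gstk1* (0.98 and 0.84). For *Malat1* they were *Anxa1* (0.99), *Gm10847* (0.99) and *Gm3336* (0.99 and 0.18). For *Pantr1* they were *Zfp811* (0.99 and 0.81), *Norad* (0.97) and *Epha5* (0.97 and 0.59), and for *Sox2ot* *Mms22l* (0.98 and 0.13), *Ehbp1* (0.97 and 0.60) and *Fam181a* (0.97). For *Rmst* they were *Serinc2* (0.94), *Nkain3* (0.94 and 0.04) and *Caly* (0.94), and for *Snhg11* *Gm13563* (0.99) and *Tmem127* (0.98 and 0.51). In all wells together *Norad*, *Fam181a* and *Gm13563* held 3 transcripts each, *Mmp24* 8, *Anxa1* and *Caly* 19 and *Serinc2* 26, and *Gm6206* and *Gm10847* were not found in them, so no r in wells is given for these genes. Among the 8 genes themselves, *Miat* and *Sox2ot* had an r of 0.77 in bulk and 0.99 in wells, and *Malat1* and *Miat* -0.91 and -0.13.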

How the data were processed

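The authors deposited, for 12 bulk libraries, normalized counts per Ensembl gene, read here as a linear signal, and for the single cells estimated counts of transcripts per well. Per the labels, mm10, BWA 0.6.2-r126, STAR, featureCounts and DESeq2 were used, with no versions for the last 3. Each bulk value was a whole read number divided by 1 factor per library (100% of values up to 100 reads, within 0.01). Rows were named with GENCODE vM21 (53274 of 53465 matched). The 8 genes and all lists were chosen with earlier results of these data known.

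For the bulk comparison, genes with a mean of at least 10 were fitted by limma 3.58.1 in R 4.3.3 after the transformation log2(normalized count + 1), and single-cell sums per plate and gate (estimated counts rounded, wells above 1500 transcripts, no removal of doublets) with edgeR 4.0.16, setting each population against the average of the 3 others. Tests were two-sided, and p-values were adjusted by Benjamini-Hochberg with a threshold of 0.05. Plates and brains were the replicates. Differences for single cells use log2(CPM + 10). DESeq2 1.42.0, pseudocounts, minimums, quantile normalization, thinning, a block and left-out replicates were alternatives. The fits were tested on simulated data, where limma recovered 98.5% of 199 changed genes and edgeR 77.5% of 200 in the neural comparison. Python 3.11.15, NumPy 2.4.6, pandas 2.3.3, SciPy 1.17.1 and matplotlib 3.10.9 were used.

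Genes named beside the 8 are the nearest coding gene on each side, genes with shared exons, the 3 with the highest r, and for each list the 2 called genes with the largest difference in each direction in the population that leads the matching RNA (in every population for the noncoding list). Libraries with the same number come from the same brain by the study's account, and residual correlations ran from -0.054 to 0.080 in bulk and from -0.035 to 0.098 over plates. The sequence of *Mir143hg* and its microRNAs, and some genes that this rule names, are not reported here.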

Additional observations from a re-analysis of the deposited data

Results flagged for a closer look

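On the wild-type plates 23 further wells passed the threshold with a Pdgfrb medium or low gate, which no comparison above uses. Summed, these wells held 97.5 CPM of *Miat*, 6626 CPM of *Malat1*, 158 CPM of *Pantr1*, 140 CPM of *Sox2ot* and 110 CPM of *Rmst*, each above the 18.3 CPM that 3 transcripts are worth there. Their neural markers summed to 8490 CPM and their mural markers to 3242 CPM. *Neat1*, *Snhg11* and *Mir143hg* were at 12.2 CPM each, below that limit.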

How the results depend on the processing

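No difference of the 8 genes in their leading population changed direction under the alternatives run. Of the differences of the 8 genes, 46 of 56 bulk and 69 of 80 single-cell values moved by less than the spread over replicates. In bulk, quantile normalization gave 2.35 for *Pantr1* and 4.38 for *Sox2ot*, a pseudocount of 10 gave 4.42 for *Sox2ot*, 6.38 for *Snhg11* and 6.61 for *Mir143hg*, a pseudocount of 0.1 gave 10.91 for *Mir143hg*, and RPM in place of the normalized counts gave 4.23 for *Sox2ot*, 4.17 for *Rmst*, 5.67 for *Snhg11* and 5.44 for *Mir143hg*. In single cells, thinning gave 3.93 for *Neat1*, 1.83 for *Sox2ot*, 1.42 for *Rmst* and 1.75 for *Mir143hg*, and CPM without *Gm10800*, mitochondrial genes and the 8 genes gave 2.47 for *Mir143hg*. Alternatives chosen after seeing the data were a pseudocount of 1 CPM (6.62 for *Miat*, 3.73 for *Neat1*, 5.03 for *Sox2ot*, 4.31 for *Rmst* and 5.16 for *Mir143hg*) and wells led by their own markers (2.54 for *Rmst*).

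Of the noncoding list, a difference over 10-fold left 15, 4, 2 and 2 higher calls in bulk neural, mural, endothelial and microglial cells and 4, 0 and 0 in neural, endothelial and microglial wells. DESeq2 called 9 in neural and 1 in endothelial wells. Leaving out replicates gave 4 to 15 in neural wells (4 without plate 1 and 4 without plate 2), 1 to 3 in endothelial wells, 0 to 1 in microglial wells and 4 to 7 in bulk endothelial cells (4 without brain 1). With the brain or plate as a replicate block, 26, 10, 9 and 7 were higher in bulk and 16, 4, 3 and 1 in wells, and the block moved counts of the other lists by over 1.5 times only where the text gives it. In wells 3 of the list were lower in microglia without plate 1 or 2 (11 with all plates), 1 in neural cells without plate 1 or 2 (2 with all), 0 in endothelial cells without plate 2 and 5 in wells led by endothelial markers (3 in all). In bulk, 5 were lower in mural cells without brain 1 or 2 (9 with all), 8 in endothelial cells without brain 2 and 11 in microglia without brain 1 (17 with all), and on recovered reads edgeR called 9 lower in endothelial cells (15 by limma) and 11 in microglia (17). Of the lists of proteins, quantile normalization called 2 speckle and 0 paraspeckle genes higher in bulk microglia, where limma called 5 and 1, and leaving out a brain called 2 or 3 speckle genes. *Celf3* and *Qki* lost their calls in wells without plate 2. Without plate 3, 2 paraspeckle and 3 speckle genes were higher in microglial wells and 2 smooth-muscle genes in mural wells. On recovered reads 4 smooth-muscle genes were higher in mural cells, and DESeq2 called 1 progenitor gene lower in neural wells (2 by edgeR), as did edgeR without plate 1 or 2. On recovered reads edgeR called 6164 genes higher and 5443 lower in neural, 4184 and 2805 in mural, 4606 and 3210 in microglial and 4115 and 2514 in endothelial libraries, where limma called 3821 and 4485 in mural and 3892 and 4430 in endothelial ones. Quantile normalization moved the median neural difference of all genes from 0.09 to -0.16. The cause was not tested. In single cells 11 of 123 neural wells held *Snhg11* and 47 of 210 mural wells held *Mir143hg*, and the part of depth in these shares was not tested.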
